A study of Mus musculus with 72 samples.

Results

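Orexin and histamine are wake-active signals that reach the dorsal raphe (DR) from the hypothalamus. Their receptors in serotonin neurons were followed here as 4 genes fixed by name, Hcrtr1, Hcrtr2, Hrh1 and Hrh3, among 17231 genes of a 10X table and 24256 genes of a table of manually sorted cells. Hcrtr1 encodes the orexin receptor that prefers orexin-A, and Hcrtr2 encodes the receptor that binds orexin-A and orexin-B alike. Both orexin receptors couple mainly to Gq/11 proteins, which activate phospholipase C and excite the neuron. Hrh1 encodes the Gq/11-coupled histamine H1 receptor, which is also excitatory in many neurons, while Hrh3 encodes the Gi/o-coupled H3 receptor, which restrains transmitter release and firing. The questions were in which Pet1 neurons each transcript was found, which receptors shared cells, and how they related to Gad2 and Slc17a8, which encode a GABA-synthesizing enzyme and the vesicular glutamate transporter VGLUT3.

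The 10X table pools EGFP-labelled Pet1 neurons of the full DR from mice of genotype Pet1::Flpe+/-; hM3Dq+/+ (mean age postnatal day 65.5) and En1::cre+/-;Pet1::Flpe+/-;RC::FrePe+/- (mean age postnatal day 59). In the first genotype no Cre was present, so the reporter labelled every Flpe-expressing Pet1 cell. In the second, label required Flpe from the Pet1 (Fev) driver and Cre from En1, a gene of the isthmus and rhombomere 1. The 70 manual cells came from mice of genotype Sert::cre+/-;Pet1::Flpe+/-;RC::FrePe+/- (Slc6a4-cre below, 33 cells from dorsolateral, dorsomedial, ventromedial and caudal DR), P2ry1::cre+/-;Pet1::Flpe+/-;RC::FrePe+/- (10 caudal cells), Npy2r::cre+/-;Pet1::Flpe+/-;RC::FrePe+/- (10 caudal and 9 rostral cells) and Crh::cre+/-;Pet1::Flpe+/-;RC::FrePe+/- (8 rostral cells). Their ages ran from postnatal day 62 to 119. All groups carried the Pet1-Flpe transgene, and RC-FrePe gave EGFP only where Flpe and the named Cre had both acted at any time in the cell's history. The subdomains are abbreviated dlDR, dmDR, vmDR, cDR and rDR.

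The 10X table held 2350 cells with 12320 to 134079 unique molecular identifiers (UMIs, counted molecules) per cell and a median of 59646. Barcode endings split it into 869 cells (barcode set 1) and 1481 cells (barcode set 2), with no barcode shared, and nothing in the files says which mice or run an ending stands for. Manual libraries held 756872 to 7664103 reads on genes. No cell carried an animal, so cells were not treated as replicates, no test between groups was made, and intervals are 95% intervals that cover counting error only. The serotonin neuron genes Tph2, which encodes the serotonin-synthesizing hydroxylase, and Fev (Pet1) had 10 or more reads in 70 of 70 manual cells. Summed CPM (counts of a gene scaled to a common library total) of astrocyte, microglial, endothelial and other-neuron markers was at most 13.7 in any 10X cluster, and that of 3 oligodendrocyte markers ran from 23.4 to 66.0. In the manual cells the highest summed values, 268 CPM for oligodendrocyte and 200.4 CPM for astrocyte markers, stood in the Slc6a4-cre cDR group, and the medians of both lists were 0 in P2ry1-cre cells. The part of these transcripts in the receptor levels was not tested.

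In mm10, the build named for these files, Hcrtr1 lies on chr4:130130217-130139594 (minus strand), Hcrtr2 on chr9:76225880-76323623 (minus strand), Hrh1 on chr6:114397936-114483298 (plus strand) and Hrh3 on chr2:180099465-180104484 (minus strand), as RefSeq places them on GRCm38.p6. In GENCODE vM21 an exon of an antisense gene overlaps Hrh3, and an antisense gene without exon overlap lies within Hcrtr2. The manual libraries did not keep the strand, so reads of Hrh3 and its antisense partner cannot be told apart there. The first 250 bases of the RefSeq start-site window held 21 CpG dinucleotides for Hcrtr1 and 21 for Hrh1, a count that 16.1% of 27025 promoters reached. They held 42 for Hrh3, which 0.825% reached, but only 4 for Hcrtr2, below the median of 6 over all promoters. These counts describe the sequences and name no site or cause. The stretches upstream of every annotated start are shown for both histamine receptors, to set the CpG-rich Hrh1 and Hrh3 starts side by side. The windows of Hcrtr1 and Hcrtr2 lie wholly or mostly within annotated transcripts and are not shown. The sequences are from RefSeq on GRCm38.p6, read 5′ to 3′ on the gene's strand, with CG, which reads the same on both strands, in capitals. The Hrh1 stretch is chr6:114397686-114397935 (plus) and the Hrh3 stretch chr2:180104489-180104657 (minus).
Hrh1: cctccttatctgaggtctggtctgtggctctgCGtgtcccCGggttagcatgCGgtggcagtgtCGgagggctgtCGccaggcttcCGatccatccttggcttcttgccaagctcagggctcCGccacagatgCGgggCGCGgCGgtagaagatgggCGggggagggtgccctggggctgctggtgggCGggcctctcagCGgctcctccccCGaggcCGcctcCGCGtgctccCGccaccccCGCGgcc
Hrh3: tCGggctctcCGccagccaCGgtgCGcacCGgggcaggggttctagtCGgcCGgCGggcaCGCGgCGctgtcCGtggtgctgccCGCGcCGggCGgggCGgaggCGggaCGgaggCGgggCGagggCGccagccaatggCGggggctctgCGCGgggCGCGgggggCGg

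All 4 transcripts were common in the 10X cells, at levels of a few molecules per cell. Hcrtr1 had 9096 UMIs in 1648 of 2350 cells, which is 70.1% (95% exact binomial interval 68.2% to 72.0%). Hrh3 was found in 64.1% (62.1% to 66.0%), Hrh1 in 58.8% (56.7% to 60.8%) and Hcrtr2 in 48.8% (46.8% to 50.9%). The median count in cells with the transcript was 4 UMIs for Hcrtr1 and 2 for each of the others, and the highest counts were 30 for Hcrtr1, 13 for Hcrtr2, 14 for Hrh1 and 12 for Hrh3. After random thinning of every cell to 20000 UMIs (53 cells had fewer and were dropped), the shares were 52.2% for Hcrtr1, 38.0% for Hrh3, 31.7% for Hrh1 and 29.7% for Hcrtr2. The table holds no cell type that should lack these receptors, so the share that free RNA gives is not known. The lowest thinned shares of any cluster were 0.943% for Hcrtr1, 5.66% for Hrh1 and 9.43% for Hrh3 in cluster 12 (median depth 45568 UMIs before thinning) and 2.24% for Hcrtr2 in cluster 13 (median depth 28628 UMIs).

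The cells were clustered into 14 groups with the genes, components and resolution given for the study and with an exact decomposition, which was chosen here. Clusters were numbered by fixed marker genes, and in all but cluster 7, whose markers scored higher in cluster 14 (1.74 against 1.58 as a mean z score), the numbered cluster had the highest score for its markers. Clusters 2 to 6 held 826 of the 879 cells with Gad2 alone, and clusters 7 to 14 held 835 of the 873 cells with Slc17a8 alone (counted at 3 or more UMIs). The receptors were among the genes used for clustering, so their levels by cluster are a description. Clustering without them gave the same number to 98.9% of cells.

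Hcrtr1 spanned the widest range. Its level was 239 CPM (223 to 256) in the 60 cells of cluster 4, which is marked by Sox14 and Prkcq. Clusters 3 (Kit, Phlda1), 1 (Npas1, Gabrq) and 2 (Crym, Trh) followed with 135, 127 and 94.5 CPM. Cluster 8 (Rorb, Nr2f2, Wnt4) came next with 86.0 CPM (78.4 to 94.1), although 75 of its 86 cells were Slc17a8 cells. Hcrtr1 was therefore not limited to the Gad2 clusters, and it was low in a cluster on that side, with 20.9 CPM in cluster 5 (Pdyn, Col25a1). Cluster 6 (Pou3f2, Bcl11a) had 53.7 CPM and cluster 10 (Hs3st5, Cbln2) 36.4 CPM. Clusters 7, 9 and 11 lay between 17.8 and 23.5 CPM. The lowest levels, 10.4, 3.92 and 2.01 CPM, were those of clusters 13 (Nfib, Nppc), 14 (Gpr101, Ecel1) and 12 (Met, Zeb2). In this order the ranges of the 2 barcode sets overlapped between 6 of the 13 neighbouring pairs, among them clusters 3 and 1, clusters 2 and 8, and clusters 11, 5, 7 and 9 one after the other. An approximate decomposition moved cells between clusters 2 and 4, with 145 cells in cluster 4 and a level of 178 CPM there against 87.0 CPM in cluster 2.

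Hcrtr2 had another distribution. It was highest in cluster 10, with 64.0 CPM (60.2 to 68.0), followed by cluster 11 (Rspo3, Foxa1) with 42.6 CPM and cluster 7 (Tmeff2, Adcy2) with 41.0 CPM. Cluster 3, a cluster of mainly Gad2 cells, stood at 37.9 CPM (35.3 to 40.6), next to clusters 8 and 9 with 31.0 and 29.1 CPM. The remaining 8 clusters lay between 3.63 and 12.5 CPM. The barcode sets did not overlap between clusters 10 and 11, 3 and 8, and 9 and 5, and they overlapped between clusters 11, 7 and 3.

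Hrh1 was highest in the same 4 clusters as Hcrtr1, with 47.3, 40.3, 37.5 and 36.8 CPM in clusters 4, 1, 3 and 2. The barcode sets of these 4 clusters overlapped from one neighbour to the next, so no order among them is given. Below a gap came clusters 8 and 5 with 19.5 and 19.4 CPM, and cluster 12 was again last with 2.41 CPM (1.25 to 4.22). Over the 14 clusters the log2(CPM + 1) levels of Hrh1 and Hcrtr1 had a Pearson correlation of 0.87, the highest of the 6 receptor pairs, where all points come from the same pooled libraries.

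Hrh3 was highest in cluster 6 (58.6 CPM, 53.9 to 63.7) and cluster 5 (54.8 CPM, 50.4 to 59.4), where Hcrtr1 and Hrh1 were lower than in clusters 1 to 4. Clusters 4, 2 and 3 had 46.7, 39.3 and 30.0 CPM. Cluster 1, among the highest for Hcrtr1 and Hrh1, had only 13.7 CPM of Hrh3. All of clusters 7 to 14 lay at or under 21.2 CPM. Among the receptors Hrh3 followed Gad2 most closely over clusters, with a correlation of 0.83, against 0.57 for Hrh1, 0.56 for Hcrtr1 and -0.18 for Hcrtr2. With Slc17a8 the order was another, with correlations of -0.78 for Hrh1, -0.68 for Hcrtr1, -0.64 for Hrh3 and 0.29 for Hcrtr2.

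**Figure D1:**
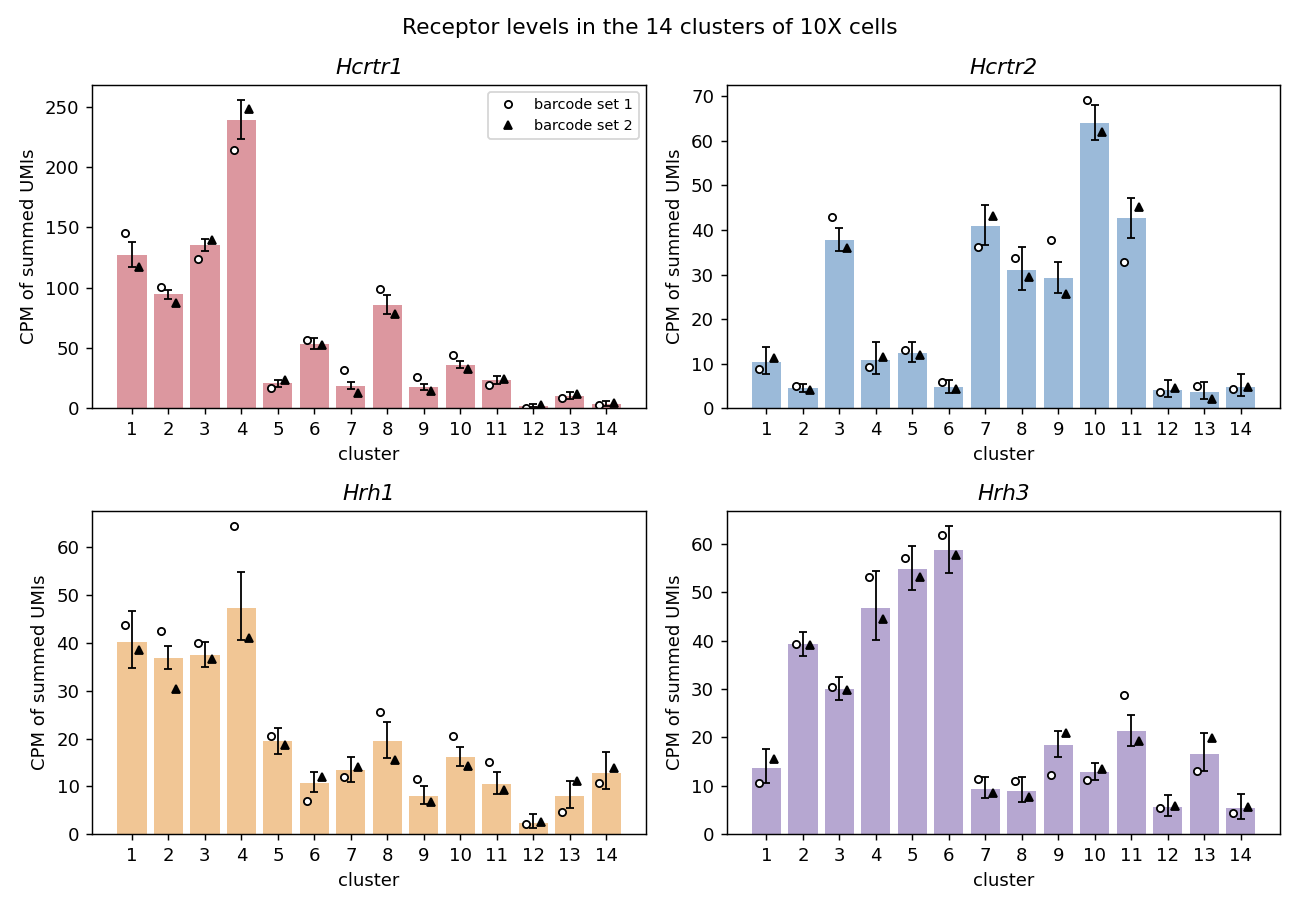
Level of each receptor (CPM of summed UMIs, vertical axis) in the 14 clusters of 10X cells (horizontal axis). Bars give all cells with exact 95% Poisson intervals, open circles barcode set 1 and triangles barcode set 2. Hcrtr1 is highest in cluster 4 (239 CPM) and Hcrtr2 in cluster 10 (64.0 CPM), and cluster 12 is lowest for Hcrtr1 and Hrh1.

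Within clusters the levels of the barcode sets lay apart in places, most for Hcrtr1 in cluster 7 among clusters with over 100 UMIs of it, with 31.7 CPM in set 1 and 12.6 CPM in set 2. Each set is a single pool, so no spread between pools is known. Genotype, age and run cannot be told apart in these sets.

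Cells of clusters 12 to 14 carried few of the receptors. At the common depth, 82 of 106 cells of cluster 12 (77.4%) had no UMI of any receptor, and the same held for 56.0% of cluster 13 and 55.8% of cluster 14, against 1.58% of cluster 3 and 1.69% of cluster 4. In cluster 12 as deposited, Hcrtr1 had 10 UMIs in 109 cells (2.01 CPM against 69.6 CPM in all other cells, log2 ratio -5.11, -6.17 to -4.23). Of these, 1 UMI was in barcode set 1 (log2 ratio -7.09) and 9 were in barcode set 2 (log2 ratio -4.55), and after thinning 1 UMI was left (log2 ratio -7.11). The log2 ratio was -3.30 (-4.26 to -2.50) for Hrh1, -2.63 (-3.32 to -2.01) for Hcrtr2 and -2.36 (-2.95 to -1.83) for Hrh3. Median depth before thinning was 28628 UMIs in cluster 13 and 34715 in cluster 14, the lowest of the clusters. These clusters were not low for every receptor. Cluster 13 had 16.6 CPM of Hrh3, above cluster 1 (13.7 CPM), beside 3.63 CPM of Hcrtr2. Cluster 14 had 12.9 CPM of Hrh1, above cluster 6 (10.7 CPM), beside 3.92 CPM of Hcrtr1. Cells with all 4 receptors were most frequent in cluster 3, with 30 of 317 cells (9.46%).

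**Figure D2:**
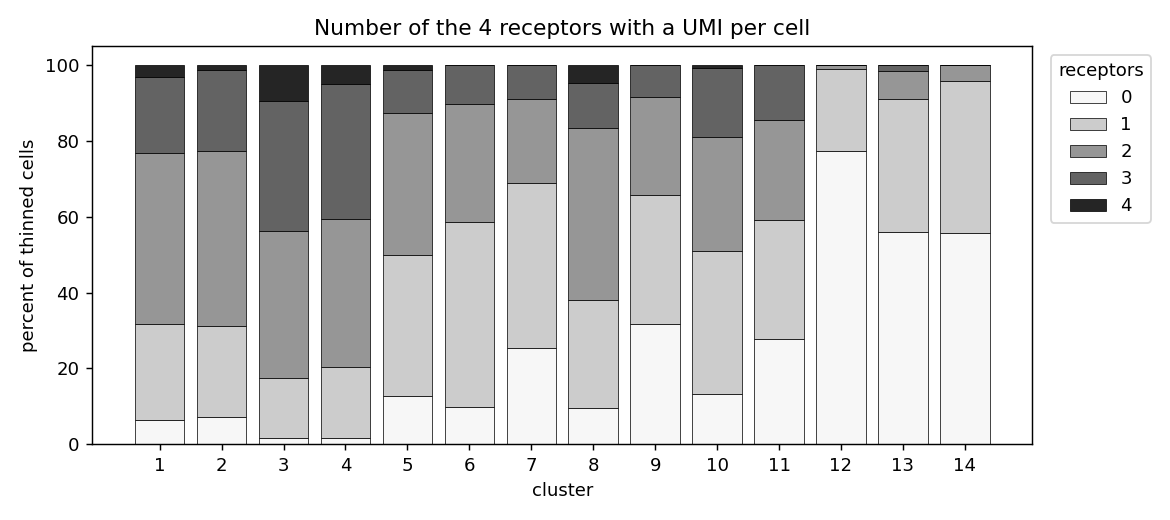
Percent of cells (vertical axis, each cell thinned to 20000 UMIs) with 0 to 4 of the receptors detected, for each cluster (horizontal axis), stacked from 0 (white) to 4 (black). Cells without any receptor make up 77.4% of cluster 12 and 1.58% of cluster 3.

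Cells with Gad2 and cells with Slc17a8 differed for each receptor. Among 879 Gad2 cells (3 or more UMIs of Gad2 and fewer of Slc17a8), Hcrtr1 was at 106 CPM (103 to 109), against 29.4 CPM (27.9 to 30.9) in the 873 Slc17a8 cells, a log2 ratio of -1.85 (-1.93 to -1.76). Hrh3 was at 40.5 CPM in Gad2 cells and 12.1 CPM in Slc17a8 cells (log2 ratio -1.75, -1.88 to -1.62). Hrh1 was at 32.7 and 13.0 CPM (log2 ratio -1.33, -1.46 to -1.20). Hcrtr2 went the other way, with 15.6 CPM in Gad2 cells and 38.8 CPM in Slc17a8 cells (log2 ratio 1.32, 1.20 to 1.44). All 4 receptors thus differed at least 2-fold, as did 6.58% of the 12509 genes with 100 or more UMIs over these cells, whose median log2 ratio was 0.02. The log2 ratio in barcode set 1 was -1.41 for Hcrtr1, 1.499 for Hcrtr2, -1.27 for Hrh1 and -1.65 for Hrh3. In barcode set 2 it was -2.13, 1.24, -1.38 and -1.81 in the same order. Between the classes, Tph2 was at 2777 CPM in Gad2 and 2952 CPM in Slc17a8 cells, Fev at 400.3 and 263 CPM, and the summed serotonin neuron markers at 8435 and 7010 CPM, and their part in the receptor differences was not tested.

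The 279 cells with both transmitter genes and the 319 with neither lay between these classes or close to one of them. Cells with both had 42.5 CPM of Hcrtr1 and 15.9 CPM of Hrh1, nearer to Slc17a8 cells, but 31.6 CPM of Hrh3, nearer to Gad2 cells. Cells with neither had 80.1 CPM of Hcrtr1, 29.4 CPM of Hrh1 and 31.8 CPM of Hrh3, and the least Hcrtr2, 12.7 CPM. Of those cells 116 were in cluster 2 and 55 in cluster 1. Scrublet marked 10 of the cells with both genes as doublets, of 14 marked in all.

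**Figure D3:**
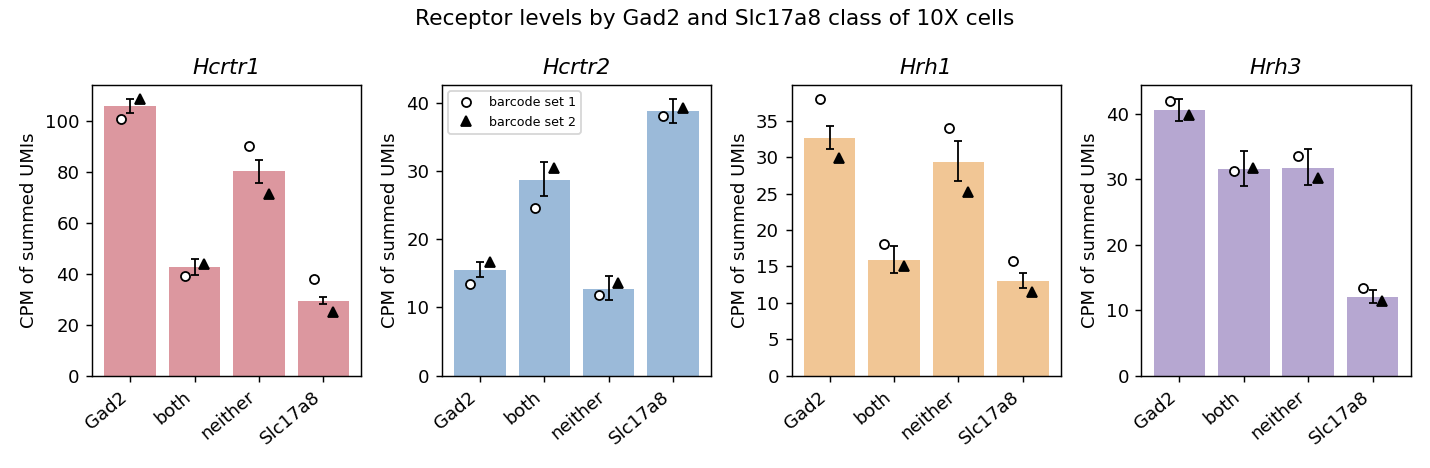
Level of each receptor (CPM of summed UMIs, vertical axis) in 10X cells with 3 or more UMIs of Gad2 only, of both Gad2 and Slc17a8, of neither, or of Slc17a8 only (horizontal axis). Bars give all cells with exact 95% Poisson intervals, circles barcode set 1 and triangles barcode set 2. Hcrtr1, Hrh1 and Hrh3 are highest in Gad2 cells and Hcrtr2 is highest in Slc17a8 cells.

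The Hcrtr2 of Gad2 cells came mostly from cluster 3, which held 28.2% of these cells and 74.8% of their Hcrtr2 UMIs. Gad2 cells of cluster 3 had 37.6 CPM of Hcrtr2 (34.7 to 40.6), a level like that of Slc17a8 cells in clusters 7 (40.7 CPM) and 9 (41.0 CPM). Gad2 cells of cluster 2 had 4.32 CPM (3.42 to 5.39) and those of cluster 6 had 3.11 CPM. Without cluster 3, Hcrtr2 was at 5.67 CPM in Gad2 cells and 38.8 CPM in Slc17a8 cells, and the log2 ratio was 2.77 (2.57 to 2.99). The level of cluster 3 was alike across classes, with 37.9 CPM in its 30 cells with both transmitter genes and 38.7 CPM in its 36 cells with neither.

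The Hcrtr1 of Slc17a8 cells also came from particular clusters. Cluster 8 held 8.59% of the Slc17a8 cells and 27.3% of their Hcrtr1 UMIs, and cluster 10 held 22.5% of the cells and 33.4% of the UMIs. The 75 Slc17a8 cells of cluster 8 had 81.3 CPM of Hcrtr1 (73.5 to 89.8), above the 21.8 CPM (18.4 to 25.7) of the 105 Gad2 cells of cluster 5 and the 53.5 CPM (47.7 to 59.8) of the 98 Gad2 cells of cluster 6. For Hrh3 the classes and clusters ran together more closely, since every cluster's Slc17a8 cells in clusters 7 to 14 lay between 4.13 and 18.1 CPM, and Gad2 cells of clusters 2 to 6 lay between 30.3 and 60.0 CPM. In cells with both transmitter genes, Hrh3 was at 25.7 CPM in cluster 10, above the 10.7 CPM of that cluster's Slc17a8 cells, and at 27.8 CPM in cluster 13, above 12.8 CPM. In cluster 6 it was 54.1 CPM (45.1 to 64.3), with 57.5 CPM (51.5 to 64.0) in its Gad2 cells, and in cluster 5 it was 36.2 CPM (27.9 to 46.3), below the 60.0 CPM (54.3 to 66.2) of its Gad2 cells.

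Of the 6 receptor pairs, Hcrtr1 and Hrh1 shared cells most often relative to their shares. At the common depth, 494 of 2297 cells (21.5%, 19.8% to 23.2%) held both, where the product of the single shares is 16.5%, a ratio of 1.30. Of cells with Hrh1, 67.9% also had Hcrtr1, and of cells with Hcrtr1, 41.2% also had Hrh1. Hcrtr1 and Hrh3 shared 22.1% of cells (20.4% to 23.9%, product 19.8%, ratio 1.11), and Hrh1 and Hrh3 shared 13.4% (12.0% to 14.8%, product 12.1%, ratio 1.11). The orexin receptors shared 17.2% (15.7% to 18.9%, product 15.5%, ratio 1.11), but the ratio was 0.89 with presence at 2 or more UMIs. Hcrtr2 and Hrh1 shared 9.71% (8.53% to 11.0%), close to the product of 9.41%. Hcrtr2 and Hrh3 shared 9.93% (8.73% to 11.2%), under the product of 11.3%, a ratio of 0.88, which was 0.54 with presence at 2 or more UMIs and 0.67 after thinning to 12000 UMIs. Receptors missed at this depth lower the shares.

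The departure of the most and the least shared pair from the product lay mainly between clusters. With products taken within each cluster and added, the ratios were 1.04 for Hcrtr1 and Hrh1, 1.00 for Hcrtr1 and Hrh3, 1.02 for Hrh1 and Hrh3, 1.05 for the orexin receptors, 1.04 for Hcrtr2 and Hrh1, and 1.03 for Hcrtr2 and Hrh3. In each pair the sum of within-cluster products lay inside the interval of the observed share. The receptors were among the genes used for clustering, and clusters made without them gave ratios of 1.00 to 1.05. Over all clusters, Slc17a8 cells had a ratio of 1.39 for the orexin receptors, 1.32 for Hcrtr1 with Hrh1 and 1.31 for Hcrtr2 with Hrh1. Gad2 cells had 1.16, 1.12 and 1.05 for these pairs. The pairs with Hrh3 were under the product in Gad2 cells, with 0.94 for Hcrtr1, 0.90 for Hcrtr2 and 0.94 for Hrh1. In Slc17a8 cells they had 1.04, 1.03 and 1.19.

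**Figure D4:**
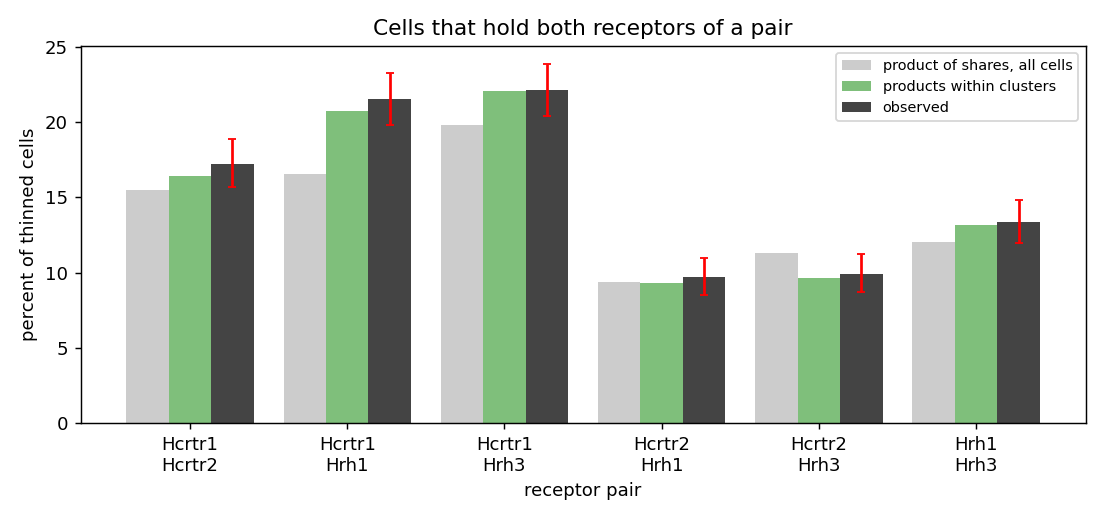
Percent of thinned cells (vertical axis) that hold both receptors of each pair (horizontal axis). Grey bars give the product of the single shares over all cells, green bars the sum of products within clusters, and dark bars the observed share with its exact 95% binomial interval. For Hcrtr1 with Hrh1 the observed 21.5% stands above the product of 16.5% and near the within-cluster value of 20.7%.

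Cells with both orexin receptors were most frequent in clusters 3, 8 and 10. In cluster 3, 145 of 317 cells (45.7%, 40.2% to 51.4%) held both, in cluster 8 it was 32 of 84 (38.1%, 27.7% to 49.3%), and in cluster 10 it was 76 of 236 (32.2%, 26.3% to 38.6%). These included a mainly Gad2 cluster and 2 mainly Slc17a8 clusters, and the shared cells came to 17.8% of Gad2 cells and 17.0% of Slc17a8 cells. The single share of Hcrtr1 differed, with 72.5% of Gad2 cells and 30.6% of Slc17a8 cells. Of Gad2 cells with Hcrtr2, 83.8% also had Hcrtr1, and of Slc17a8 cells with Hcrtr2, 42.6% did. No cell of clusters 12, 13 or 14 held both at this depth, where the products of the single shares were only 0.07%, 0.30% and 0.53%, under 1 cell in each cluster. Leaving those clusters out, the orexin receptors shared 20.2% of 1962 cells, equal to the product of 20.2%.

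The most frequent combinations differed between the transmitter classes. In Gad2 cells, Hcrtr1 with Hrh3 alone was found in 16.1% of 869 cells, Hcrtr1 with Hrh1 alone in 13.5%, and those 3 without Hcrtr2 in 12.7%, while 6.56% had no receptor. In Slc17a8 cells, 33.3% of 857 had no receptor, 14.8% had Hcrtr2 alone and 9.69% had both orexin receptors alone. Hcrtr2 alone was found in 0.806% of Gad2 cells. All 4 receptors were found together in 3.45% of Gad2 cells and 0.467% of Slc17a8 cells.

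The genes whose pattern over the 14 clusters was most like each receptor were taken from 10484 genes with 500 or more UMIs. For Hcrtr1 they were Scn7a (r = 0.95), Ank (0.94) and Magi3 (0.94), with Scn7a highest in cluster 4 (60.6 CPM) and lowest in cluster 14 (0.56 CPM). For Hrh1 they were Nudt18 (0.96), Neat1 (0.94) and Rasgrf1 (0.94), of which Rasgrf1, a Ras guanine nucleotide exchange factor, was highest in cluster 1 (504 CPM) and lowest in cluster 12 (194 CPM). For Hrh3 they were Pax5 (0.97), a paired-box transcription factor, Pcsk6 (0.96), a proprotein convertase, and Atp13a2 (0.93). Pax5 was highest in cluster 2 (95.5 CPM) and lowest in cluster 12 (0.40 CPM), and its correlation with Hrh3 within barcode sets 1 and 2 was 0.94 and 0.97. For Hcrtr2 the likeness was lower, with Cox4i1 (0.91), Acsl5 (0.88) and Prkcz (0.87), and over clusters Cox4i1 ran from 1197 to 1537 CPM, Acsl5 from 21.3 to 37.7 CPM and Prkcz from 75.05 to 112 CPM. The points share their libraries, and the genes were selected as the highest of many.

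Genes of the receptors' pathway were compared between Slc17a8 and Gad2 cells. The orexin precursor Hcrt had 81 UMIs in all cells, and the histamine-forming enzyme Hdc had 104, while the histamine-degrading enzyme Hnmt had 2450 UMIs and equal levels in both classes (18.0 CPM). Hrh2 had 86 UMIs. Hrh4 was not in the 10X table, had at most 3.63 CPM in a manual cell and reached 10 reads in none. Of 30 pathway genes with 100 or more UMIs over the classes, 6 were at least 2-fold higher in Slc17a8 cells (3.64% of all 12509 genes were) and 1 was at least 2-fold lower (2.94% of all genes were).

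These genes were in the phospholipase C, TRPC channel and RGS lists, and none of the 5 Gi/o subunits was among them. Plcb1 and Plcb4, phospholipase C enzymes that Gq/11 activates, were at 35.3 and 214 CPM in Slc17a8 cells and 5.58 and 96.4 CPM in Gad2 cells (log2 ratios 2.66 and 1.15). Trpc5, a cation channel opened downstream of phospholipase C, had a log2 ratio of 1.69 at 6.80 CPM in Slc17a8 cells and 2.12 CPM in Gad2 cells. Rgs7 and Rgs16, which speed the shut-off of G proteins, had log2 ratios of 1.05 and 1.08. Itpr3, an inositol trisphosphate receptor, was lower in Slc17a8 cells, with 0.29 against 2.08 CPM (log2 ratio -2.86). The Gq/11 subunits Gnaq and Gna11 were within 2-fold, with log2 ratios of -0.23 and -0.16, and so were the Gi/o subunits, from -0.34 to -0.17. Cluster 12, lowest in Hcrtr1 and Hrh1, had 439 CPM of Plcb4 and 177 CPM of Gnaq, so Gq/11 pathway transcripts were present there.

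The manual cells gave levels by driver and subdomain. Hcrtr1 had 10 or more reads in 55 of 70 cells, Hrh3 in 46, Hrh1 in 42 and Hcrtr2 in 35.

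Hcrtr1 was found at that level in all Slc6a4-cre cells of dlDR, dmDR and cDR. In dlDR it ran from 45.8 to 648 CPM (median 213, 10 cells), in dmDR from 18.4 to 939 CPM (median 472, 9 cells) and in cDR from 56.4 to 366 CPM (median 238, 6 cells). In vmDR it ran from 0 to 1005 CPM (median 166, 8 cells) with 1 cell at 0. These 4 groups overlapped one another. The Slc6a4-cre cDR cells had no read of Gad2 and 22.2 to 239 CPM of Slc17a8 in every cell, so their Hcrtr1 was present without Gad2. Crh-cre rDR cells ran from 0 to 719 CPM (median 253), Npy2r-cre rDR cells from 7.39 to 465 CPM (median 92.2), and Npy2r-cre cDR cells from 0 to 144 CPM (median 28.8), the lowest median but that of the P2ry1-cre cells.

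The 10 P2ry1-cre cDR cells held almost none of the receptors. Hcrtr1 was at 0 in 9 of 10 cells and at 0.31 CPM (2 reads) in the other, Hcrtr2 and Hrh1 were at 0 in 10 of 10, and Hrh3 was at 0 in 8, with 0.16 CPM and 1.75 CPM (10 reads) in the others. A count of 0 allows up to 0.75 CPM in the shallowest of these libraries (3 reads), for counting error only, since PCR copies in these reads are not independent molecules, and their depth ran from 3999547 to 6416860 reads, with the highest median of the 8 groups (5737032 reads). The group did not overlap the Slc6a4-cre cDR cells, from the same subdomain, in Hcrtr1 (56.4 CPM and above). For Hcrtr2, Hrh1 and Hrh3 the groups overlapped, with 1, 1 and 3 of 6 Slc6a4-cre cDR cells at 0. The share of all genes without overlap between these groups was not counted. All 10 P2ry1-cre cells had Tph2, at 2720 CPM or more, and Slc17a8, at 21.0 CPM or more. Of 3919 genes with 10 or more reads in 35 to 55 of the 60 other cells, the range of the receptors, 1.45% reached 10 reads in no P2ry1-cre cell, as Hcrtr1, Hcrtr2 and Hrh1 did, and 3.88% in at most 1, as all 4 receptors did. That count was added after the values had been seen.

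Transcripts of the Gq/11 pathway were nonetheless found in these cells. Plcb4 was at a median of 499 CPM in P2ry1-cre cells and 71.5 CPM in the other 60, and Gna11 at 171 and 146 CPM. Gnaq was at 36.6 and 84.3 CPM.

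Hcrtr2 split most groups into cells with and without it. It was at 0 in 5 of 10 dlDR, 2 of 9 dmDR and 4 of 8 vmDR cells of Slc6a4-cre mice, in 5 of 9 Npy2r-cre rDR cells and in 3 of 10 Npy2r-cre cDR cells. Slc6a4-cre cDR cells were the most even, with 24.5 to 50.3 CPM in 5 of 6 cells, 0 in the sixth and a median of 45.5 CPM. Crh-cre rDR cells had a median of 43.8 CPM and a highest value of 72.7 CPM. The highest cell of all, at 170 CPM, was in Slc6a4-cre dmDR.

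Hrh1 had medians of 69.6 CPM in dlDR (0 to 199), 60.6 CPM in dmDR (0 to 120), 35.8 CPM in vmDR (0 to 109) and 28.0 CPM in cDR (0 to 112) of Slc6a4-cre mice. In Crh-cre rDR the median was 28.0 CPM (0 to 215) and in Npy2r-cre cDR 12.7 CPM (0 to 62.1). In Npy2r-cre rDR 5 of 9 cells were at 0. All of these groups overlapped.

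Hrh3 differed between the rostral and caudal Npy2r-cre cells in its median, 73.2 CPM in rDR (0.72 to 207) and 0.71 CPM in cDR (0 to 66.9), with 10 or more reads in 8 of 9 and 3 of 10 cells. The groups overlapped and were not tested. At day 77 the medians were 22.2 CPM in rDR and 0.59 CPM in cDR, and at day 87 they were 116 and 4.42 CPM. Gad2 had 10 or more reads in 6 of those rDR cells and 3 of those cDR cells. In the other groups the median Hrh3 level was 49.0 CPM in Crh-cre rDR (4.37 to 124), 42.3 CPM in dlDR (2.54 to 125), 36.5 CPM in dmDR (19.4 to 113), 11.9 CPM in vmDR (0 to 46.0) and 9.88 CPM in Slc6a4-cre cDR (0 to 49.9). The 9 dmDR cells were all at 10 or more reads.

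**Figure D5:**
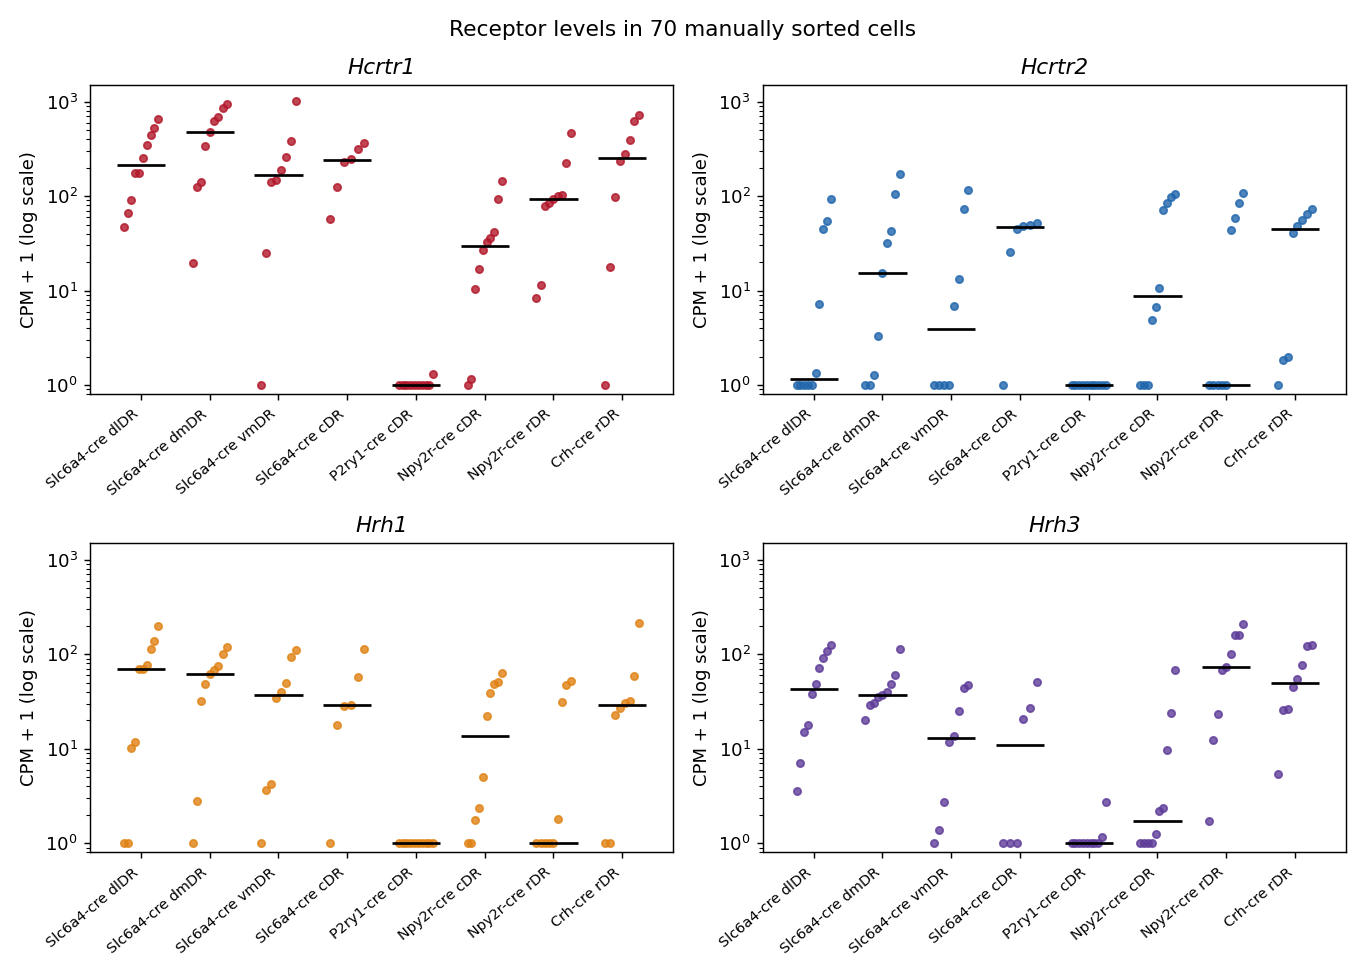
Level of each receptor in each of 70 manually sorted cells (CPM + 1, log scale, vertical axis) by sorted group (horizontal axis). Points are cells ordered by level and bars are group medians. Cells of P2ry1-cre cDR lie at or near 0 for all 4 receptors, with 1.75 CPM as their highest value.

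Several groups held cells of more than 1 age, and age, animal and, in places, depth cannot be told apart there. In Npy2r-cre rDR the median depth was 5551000 reads at postnatal day 77 and 1462000 at day 87, and in Crh-cre rDR it was 4915000 at day 83 and 1495000 at day 119, which bears on counts of cells at 10 reads. In Npy2r-cre rDR, 3 cells of postnatal day 77 had Hcrtr2 at 42.3 to 108 CPM and no read of Hrh1, while of 6 cells of day 87, 1 had 10 or more reads of Hcrtr2 and 3 of Hrh1. In Crh-cre rDR, both cells of day 83 had under 1 CPM of Hcrtr2, and 5 of 6 cells of day 119 had 10 or more reads. In Slc6a4-cre dlDR the median of Hcrtr1 was 90.8 CPM at day 63 (5 cells) and 346 CPM at day 90 (5 cells), with overlapping ranges. In the other Slc6a4-cre groups of these ages the day 90 median was the lower, with 660 and 339 CPM in dmDR (6 and 3 cells) and 322 and 144 CPM in vmDR (4 and 4 cells).

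By transmitter class, Hcrtr1, Hrh1 and Hrh3 were higher in Gad2 cells of the manual table as well. Class ran with driver and subdomain: Slc6a4-cre dlDR, Slc6a4-cre dmDR and Crh-cre rDR gave 6 each of the 25 Gad2 cells, and the cDR groups of P2ry1-cre, Npy2r-cre and Slc6a4-cre gave 10, 7 and 6 of the 35 Slc17a8 cells. The part of the sorted group in the class difference was not tested. In 25 Gad2 cells (10 or more reads of Gad2 and fewer of Slc17a8) the median was 346 CPM of Hcrtr1, 47.9 CPM of Hrh3 and 47.8 CPM of Hrh1, and in 35 Slc17a8 cells it was 23.7, 0.39 and 0 CPM. The difference of mean log2(CPM + 1), Slc17a8 minus Gad2 cells, was -3.74 for Hcrtr1, -3.65 for Hrh3 and -2.66 for Hrh1, where 8.49% of 11838 genes were lower by 1 or more. The 10 P2ry1-cre cells are all Slc17a8 cells, and without them the differences were -2.16, -2.95 and -1.78, where 5.68% of 11662 genes were lower by 1 or more. Hcrtr2 differed by 0.14 with the P2ry1-cre cells, under the difference of 1 that 12.1% of genes reached in either direction and 3.62% upward. Without them it differed by 1.14, and 5.55% of genes were higher by 1 or more in that comparison.

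Most manual cells held several receptors. With 10 or more reads as presence, 19 of 70 cells held all 4, 24 held 3, 13 held 2, 4 held 1 and 10 held none, and 9 of those 10 were P2ry1-cre cells. The most frequent combination short of all 4 was Hcrtr1 with Hrh1 and Hrh3, in 13 cells. Of 35 cells with Hcrtr2, 34 also had Hcrtr1, and of 42 with Hrh1, 40 had Hcrtr1. The products of shares give 27.5 and 33.0 cells over all groups, and 32.0 and 38.8 when taken within groups, so most of the departure from the product lay between groups.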

How the data were processed

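The study measured single Pet1 neurons by droplet (10X Genomics 3′ v3) and by full-length (SMART-Seq v4) sequencing. For the droplet cells the authors deposited UMI counts per gene and cell after their filters on genes per cell, glial, mitochondrial, ribosomal and Fev transcripts and outlying totals. For the manual cells the authors deposited read counts per gene and cell, not normalized. The submitters' processing notes name Cell Ranger 3.0.2, STAR 2.5.4, R 3.5.3 and mm10. Groups come from the labels, and the 70 manual columns were matched by title, where 8 columns written Crf were taken as the Crh samples of the same region and number.

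Levels are CPM of summed counts, with 95% intervals that were exact Poisson for levels, exact conditional for log2 ratios and Clopper-Pearson for shares of cells. PCR duplicates are collapsed in UMIs but not in the manual reads, where no interval is given and a limit from 0 reads covers counting error only. Clusters were made with Seurat 5.3.0 in R 4.3.3 (2000 variable genes, 50 components without 6 and 7, 20 neighbours, resolution 0.9, exact decomposition), and 13 of 14 had the highest marker score for their number. The exact decomposition is not stated for the study. Scrublet in scanpy 1.11.5 called 14 doublets, which were kept. A cell counted as a Gad2 or Slc17a8 cell at 3 UMIs or 10 reads. The calculation of the ratios was checked on simulated data. By rule the text names the receptors, Gad2, Slc17a8, Tph2, Fev, cluster markers, pathway genes past 2-fold between the classes and the 3 genes most like each receptor; other pathway genes were named after their values were seen. Not every pathway gene past 2-fold is reported here. The members, lists and cut-offs were chosen with earlier results of these data known. Computation used numpy 2.4.6, scipy 1.17.1 and pandas 2.3.3.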

Additional observations from a re-analysis of the deposited data

Results flagged for a closer look

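Single cells that stood apart in their sorted group were looked for in groups of 4 to 10 cells with Dixon's criterion on CPM, and 7 of 30 combinations of receptor and group with any spread had one, where chance gives about 1 in 20 for normally spread values and CPM of single cells are skewed. Hcrtr1 was at 1005 CPM in a Slc6a4-cre vmDR cell, with 385 CPM in the next, and at 465 CPM in a Npy2r-cre rDR cell, with 222 CPM in the next. The vmDR cell was also the group's highest for Gad2. Hrh1 was at 215 CPM in a Crh-cre rDR cell, with 58.2 CPM in the next. Hrh3 was at 113 CPM in a Slc6a4-cre dmDR cell, with 59.5 CPM in the next, and at 66.9 CPM in a Npy2r-cre cDR cell, with 22.7 CPM in the next. The other combinations were in P2ry1-cre cDR, where 1 cell had 0.31 CPM of Hcrtr1 (2 reads) and 1 had 1.75 CPM of Hrh3 (10 reads) beside cells at or near 0.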

How the results depend on the processing

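No difference between Slc17a8 and Gad2 cells, and no difference of cluster 12 from the other cells, changed sign in the alternatives run. The log2 ratio of Hcrtr1 between Slc17a8 and Gad2 cells (-1.85) was -1.69 with classes at 1 UMI, -2.17 thinned, -2.02 as a mean over cells, -1.41 and -2.13 in barcode sets 1 and 2, -1.71 without cluster 12, -1.58 without clusters 12 to 14 and -1.60 without cluster 3. That of Hcrtr2 (1.32) was 1.13 thinned, 1.499 in barcode set 1, 1.18 between clusters 7 to 14 and 2 to 6, 1.45 without cluster 12, 1.61 without clusters 12 to 14 and 2.77 without cluster 3. Hrh1 was -1.14 without clusters 12 to 14 and Hrh3 -1.92 without cluster 3. Hcrtr1 in cluster 12 (-5.11) was -6.94 with components 6 and 7 kept, where the matching cluster held 42 cells in place of 109, -7.11 thinned and -7.09 in barcode set 1, each on 1 UMI with intervals reaching -4.46, -4.63 and -4.61.

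Over the alternatives, which leave out the transmitter classes taken singly, the pair ratios with Hcrtr2 crossed 1 in some settings. The ratios of the pairs without Hcrtr2 stayed above 1. With presence at 2 UMIs the ratios were 0.89 for the orexin receptors, 0.84 for Hcrtr2 and Hrh1 and 0.54 for Hcrtr2 and Hrh3. In that setting Hcrtr1 and Hrh1 had 1.84 and Hrh1 and Hrh3 had 1.46. Hcrtr1 and Hrh1 had 1.20 as deposited and Hcrtr2 and Hrh3 had 0.67 thinned to 12000 UMIs. With products within clusters, Hcrtr1 had 1.04 with Hrh1 and 1.00 with Hrh3, and Hcrtr2 had 1.03 with Hrh3, and clusters made without the receptors gave 1.04, 1.00 and 1.03. Without clusters 12 to 14 the orexin receptors had 1.00, Hcrtr1 and Hrh3 1.03 and Hcrtr2 and Hrh1 0.95. The cause was not tested. Settings without a cluster, without P2ry1-cre cells and with receptor-free clusters were chosen after seeing the data.

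Manual differences ranged over the alternatives from -4.77 to -2.16 for Hcrtr1, 0.05 to 1.14 for Hcrtr2, -3.96 to -1.40 for Hrh1 and -5.32 to -1.89 for Hrh3. No paired analysis was possible because the numbers of the manual cells name cells and not animals, and no 10X cell is tied to a run or an animal. Depth limits the shares, since most cells with a receptor held only a few UMIs of it.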
